A study of Mus musculus with 12 samples.

Results

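The cytosolic tRNAs for phenylalanine were examined base by base. Their members were every row of the deposited tables whose entry name starts with tRNA-Phe-, which gave 528 of 28302 rows, from 7 entries. The 5 copies Phe-GAA-1-1 to Phe-GAA-1-5 held identical values and were counted once. This left 3 distinct tRNAs, Phe-GAA-1-1, Phe-GAA-2-1 and Phe-GAA-3-1, of 213 distinct tRNAs in all. They had 224 distinct rows, 51 of them at T. All 3 carry the anticodon GAA at positions 34 to 36, and a row's number equals its standard tRNA position.

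The libraries came from wild-type mouse hematopoietic stem and progenitor cells (HSPCs), which give rise to all blood lineages. There were 4 groups of 3 libraries: old cells with CMC, old cells in BEU buffer alone, young cells with CMC and young cells in BEU buffer alone. The labels give no ages in months and do not say whether the replicates came from separate mice, so the spread behind each p-value is that of the libraries and may be technical. The tables hold tRNA rows alone, so marker genes of the cell type were not analysed here. In all groups, small RNA under 200 nt was treated with wild-type AlkB and with a mutant AlkB, enzymes that remove several methyl marks, before the CMC step.

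CMC is a carbodiimide that stays on pseudouridine after an alkaline wash and halts reverse transcriptase there. Pseudouridine is a rearranged uridine made by pseudouridine synthases, and it is frequent in the T arm and anticodon arm of tRNAs. The stop rate is the share of a row's coverage, in percent, that the files record as stopping there, and the rise is the CMC stop rate minus the BEU stop rate in percentage points. Mammalian tRNA-Phe is also known for wybutosine, a bulky multi-ring base made from guanosine at position 37, next to the anticodon.

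The 3 sequences are shown because the results turn on how little they differ. They are given 5′ to 3′ as DNA letters from the row names, and capitals mark T27, T28, T39, T54 and T55, where pseudouridine synthases are known to act in mammalian tRNAs.
Phe-GAA-1-1, positions 1 to 75: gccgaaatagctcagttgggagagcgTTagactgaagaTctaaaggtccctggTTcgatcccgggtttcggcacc
Phe-GAA-2-1, positions 4 to 75: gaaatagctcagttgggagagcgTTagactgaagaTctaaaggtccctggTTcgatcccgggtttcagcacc
Phe-GAA-3-1, positions 1 to 75: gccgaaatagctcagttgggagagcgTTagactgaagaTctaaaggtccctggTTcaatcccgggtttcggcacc

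Counted from the 5′ end, Phe-GAA-2-1 differed from Phe-GAA-1-1 by G70A over 72 positions compared, and Phe-GAA-3-1 by G57A over 75. RefSeq lists 7 mouse tRNA genes of this anticodon, on 5 chromosomes, but the entry names matched none of their names. The entries are therefore not paired with genome positions here.

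Coverage shows how far the 3 tRNAs can be told apart. Coverage of Phe-GAA-3-1 equalled that of Phe-GAA-1-1, within 2 reads or 2%, at 30 of 76 rows, all from row 0, the read start before the first base, to position 29. Phe-GAA-2-1 matched Phe-GAA-1-1 in this way at 5 of 72 positions, 37 to 41. Values at these positions are therefore not separate measurements of the tRNAs.

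Coverage did not exceed 8015 reads in any library, and stops 3′ of the point where a tRNA reached this ceiling were recorded at about 1 read. A library was taken as at the ceiling once coverage at a base, or 5′ of it, was at least 7500. Phe-GAA-1-1 reached the ceiling in all 6 BEU libraries, at positions 37, 48 and 50 in old cells and 46, 46 and 37 in young cells. With CMC it did so from position 57 in old replicate 3 and from position 51 in young replicate 2. Phe-GAA-2-1 reached it at position 37 in 1 old and 1 young BEU library. Phe-GAA-3-1 stayed below it in all 12 libraries, with a highest coverage between 492 and 5443 reads, so its 3′ values are the ones measured in every library.

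**Figure D1:**
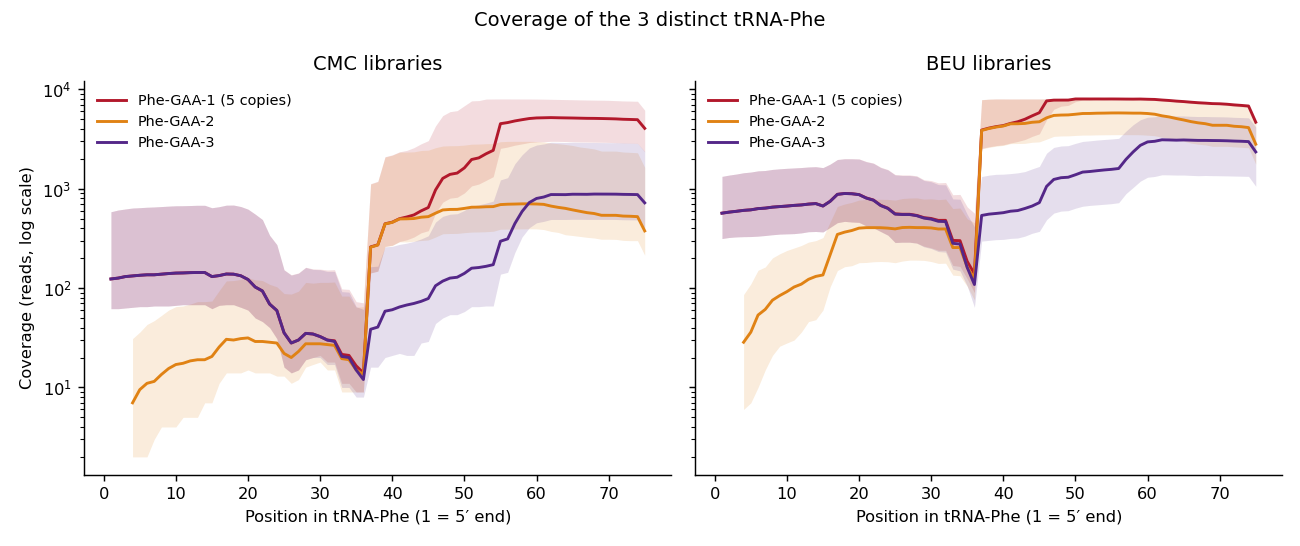
Coverage in reads, on a log axis, against position for the 3 distinct tRNA-Phe in the 6 CMC libraries and the 6 BEU libraries. Lines are medians over the 6 libraries and bands run from the lowest to the highest library. Coverage dropped sharply 5′ of position 37 in all 3 tRNAs, and that of Phe-GAA-1-1 levelled off near 8000 reads in the BEU libraries.

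Of the 51 distinct T rows, 38 had coverage of at least 20 reads in all 12 libraries. A call of CMC dependence needed an adjusted p below 0.05, a positive rise in each of the 3 replicates, and 10 points or more on average. In old cells 6 of the 38 were called, beside 20.3% of all 2189 T sites tested. In young cells 6 were called, beside 18.8% of all T sites. The shares of tRNA-Phe sites were thus near those of all tRNAs. The calls in both ages, 5 in number, were T39 and T51 of Phe-GAA-1-1, T39 of Phe-GAA-2-1, and T39 and T55 of Phe-GAA-3-1. The remaining calls were T55 of Phe-GAA-1-1 in old cells and T47 of Phe-GAA-1-1 in young cells. The calls at T47, T51 and T55 of Phe-GAA-1-1 rested on BEU libraries at the ceiling. With such libraries set to missing, limma called the same 4 sites in both ages, T39 of all 3 tRNAs and T55 of Phe-GAA-3-1. Among all T sites still testable, 20.0% of 2053 were called in old cells and 19.4% of 1977 in young cells. T sites of Phe-GAA-1-1 from position 51 on had no measured BEU library and could not be tested. Setting libraries to missing was chosen after seeing the data. On simulated data, limma called more unchanged sites than edgeR did in the comparison of CMC with BEU. The limma counts may therefore hold false calls. The simulated spread was chosen and not estimated from these libraries, so the simulation cannot tell how many.

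**Figure D2:**
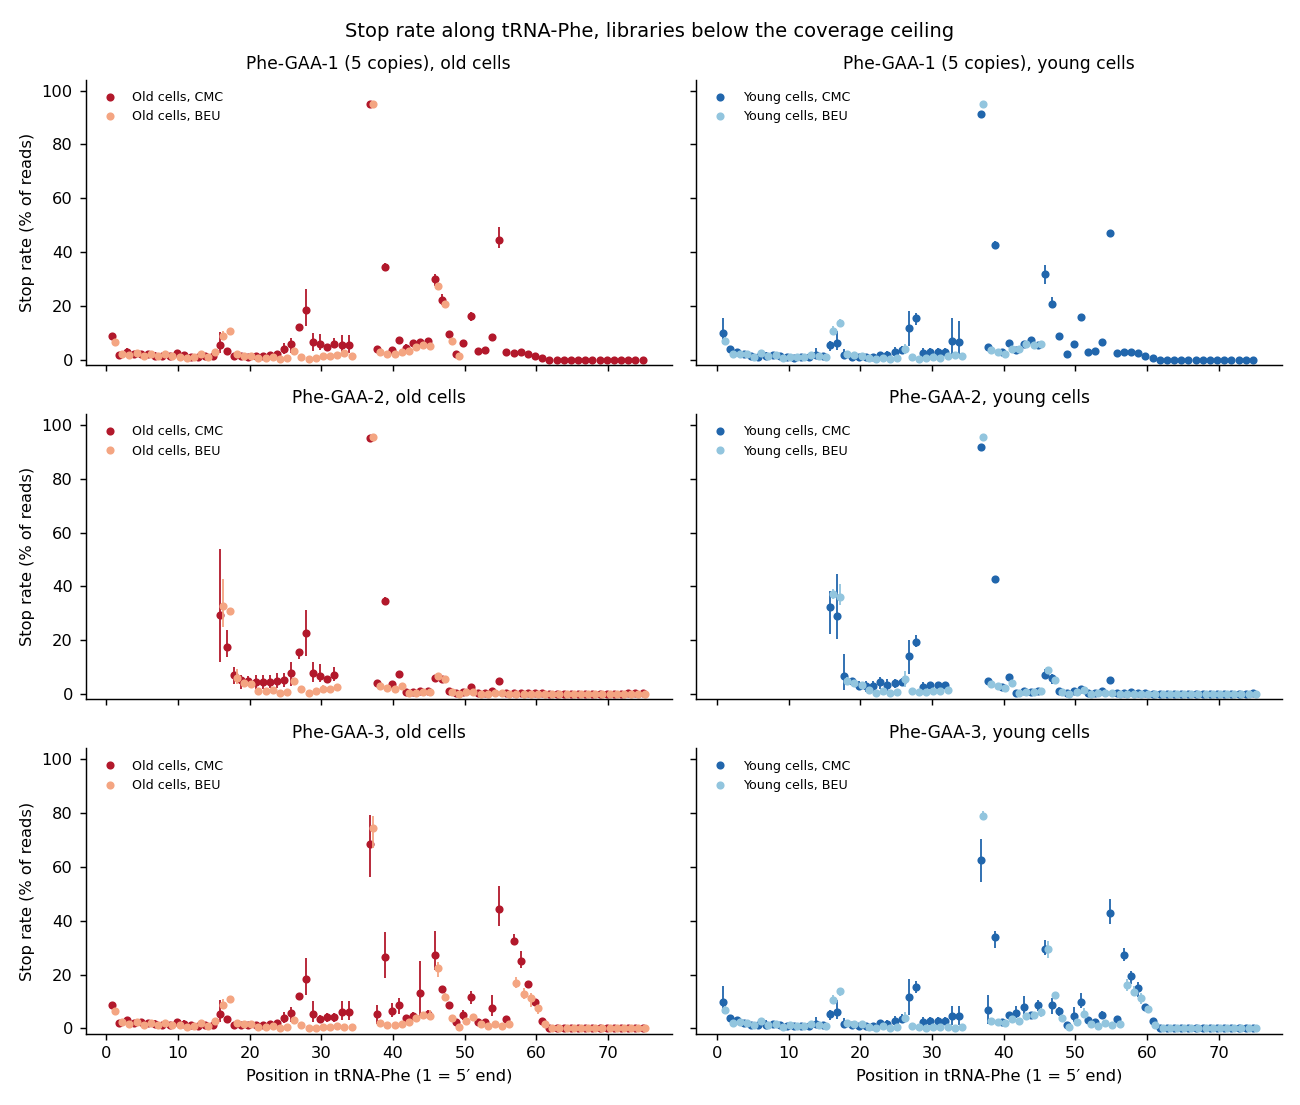
Stop rate in percent of reads against position for the 3 distinct tRNA-Phe, old cells on the left and young cells on the right, at positions with coverage of at least 10 in all 12 libraries. Points are means over the libraries below the ceiling, of 3 a group, and lines run from the lowest to the highest of them. Position 37 stood highest with and without CMC, position 39 stood high with CMC in all 3 tRNAs, and position 55 did so in Phe-GAA-1-1 and Phe-GAA-3-1.

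Position 55 lies in the T loop, where TRUB1 and PUS10 make the pseudouridine found in most tRNAs. At T55 of Phe-GAA-3-1 the CMC stop rate was 41.6, 52.9 and 38% in old cells, and the BEU stop rate was 0.682, 0.758 and 1.27%. In young cells the CMC stop rate was 42.1, 38.7 and 48.1%, and the BEU stop rate was 1.22, 1.78 and 1.07%. CMC and BEU libraries did not overlap, and the ages did. The rise was 43.3 ± 7.96 points in old cells and 41.6 ± 5.13 points in young cells (SD, n = 3 pairs each). The adjusted p by edgeR's quasi-likelihood test was 1.16e-07 in old cells and 1.95e-07 in young cells. This site was called in both ages under all 15 settings tried.

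Phe-GAA-1-1 had CMC stop rates at T55 of 42.8, 49.2 and 41.3% in old cells, and of 47.6 and 46.3% in young replicates 1 and 3. Young replicate 2 read 0.0625% there, at the ceiling, and every BEU library was at the ceiling too, so no rise can be given. The absence of a young call at this base came with that library, and without it T55 was called in young cells as well.

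Phe-GAA-2-1 read low at the same base. Its CMC stop rate was 4.79, 4.6 and 5.00% in old cells and 4.90, 4.14 and 6.31% in young cells. The rise was 4.63 ± 0.298 points in old cells and 4.90 ± 1.24 points in young cells (SD, n = 3 pairs each), below the 10 points a call needed. The BEU library was at the ceiling in old replicate 1 and young replicate 3. With those missing, the rise was 4.57 points in old cells and 4.81 points in young cells. With all 6 pairs kept, the rise lay 32.3 points below the median of 158 other tRNAs with a tested T55, lower in 6 of 6 pairs. Of the 158, 145 were higher, so a low value here was not particular to Phe-GAA-2-1. In this and the like comparisons, the median of the other tRNAs was taken in each pair and averaged over the 6 pairs. The two-sided exact sign-flip test gave p = 0.03125, the smallest it can give, and 0.06875 after Benjamini-Hochberg adjustment over 33 comparisons. The difference did not pass, but 6 pairs allow no smaller p, so this does not show that Phe-GAA-2-1 equals the others. Phe-GAA-3-1 was 5.36 points above the same median, higher in 4 of 6 pairs (exact p = 0.125, adjusted p = 0.147). Whether Phe-GAA-2-1 shares reads with Phe-GAA-1-1 was not tested. Nor was it tested whether such reads or the base at position 70 play a part in its low value.

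Position 54, where TRMT2A makes 5-methyluridine and PUS10 can make pseudouridine, had low stop rates. T54 of Phe-GAA-3-1 had a CMC stop rate of 5.67, 4.54 and 12.2% in old cells and 6.40, 4.80 and 4.0% in young cells. The BEU stop rate was 1.48, 2.03 and 1.58% in old cells and 1.76, 2.25 and 1.57% in young cells. CMC exceeded BEU in all 6 pairs, with an adjusted p by edgeR of 0.000867 in old cells and 0.00899 in young cells. The rise of 5.79 ± 4.30 points in old cells and 3.21 ± 1.25 points in young cells stayed below the 10 points of a call.

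Position 39 closes the anticodon stem, and PUS3 makes its pseudouridine. At T39 of Phe-GAA-1-1 the CMC stop rate was 35.9, 33.1 and 34.3% in old cells and 41.0, 42.7 and 44.1% in young cells. The BEU libraries below the ceiling gave 2.14 and 2.39% in old cells and 2.91 and 3.13% in young cells. All CMC libraries stood above all BEU libraries, and the old CMC libraries all stood below the young ones. The adjusted p for CMC against BEU by edgeR was 0.0120 in old cells and 0.0138 in young cells. T39 of Phe-GAA-1-1 was called in both ages under all 14 settings in which it was tested. Phe-GAA-2-1 had nearly the same values at T39, which lies within the positions of equal coverage, and was not called in young cells without young replicate 1 or 3.

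Phe-GAA-3-1 had a median of 0.129 times the coverage of Phe-GAA-1-1 at this base, and whether some of its reads were also counted for Phe-GAA-1-1 was not tested. It had CMC stop rates at T39 of 35.9, 25 and 18.6% in old cells and 29.7, 35.8 and 36.1% in young cells. Its BEU stop rates were 1.58, 1.10 and 1.63% in old cells and 2.14, 1.48 and 2.99% in young cells. CMC stood above BEU in all 6 pairs and the ages overlapped. Coverage was only 20 reads in the shallowest library, old replicate 2 with CMC. The rise was 25 ± 8.72 points in old cells and 31.7 ± 3.61 points in young cells (SD, n = 3 pairs each), with an adjusted p by edgeR of 3.08e-06 in old cells and 1.90e-06 in young cells.

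Against the other tRNAs, T39 of Phe-GAA-1-1 had a rise of 36.7 points over the 6 pairs, beside a median of 23.0 points in 70 other tRNAs with a tested T39, and 6 of the 70 were higher. The BEU value was at the ceiling in 2 of the 6 pairs. It was higher than the median in 6 of 6 pairs, by 13.8 points (exact sign-flip p = 0.03125, adjusted p = 0.06875). T39 of Phe-GAA-3-1 was 5.36 points above the median, higher in 5 of 6 pairs (exact p = 0.0938, adjusted p = 0.124). In all, 33 T sites of tRNA-Phe were compared with other tRNAs. None passed after adjustment, and 15 had an unadjusted exact p under 0.05. All 15 stood at 0.03125, the smallest p that 6 pairs can give. With 15 sites at that value none could pass, so the adjusted test cannot show that a difference is absent. These 15 are not separate results, since T8 and T12 share coverage between Phe-GAA-1-1 and Phe-GAA-3-1, as T39 does between Phe-GAA-1-1 and Phe-GAA-2-1. They also include T51 and T67 of Phe-GAA-1-1, whose BEU libraries were all at the ceiling. T39 of Phe-GAA-1-1 and every site of Phe-GAA-2-1 among them had 2 of 6 BEU libraries at the ceiling.

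**Figure D3:**
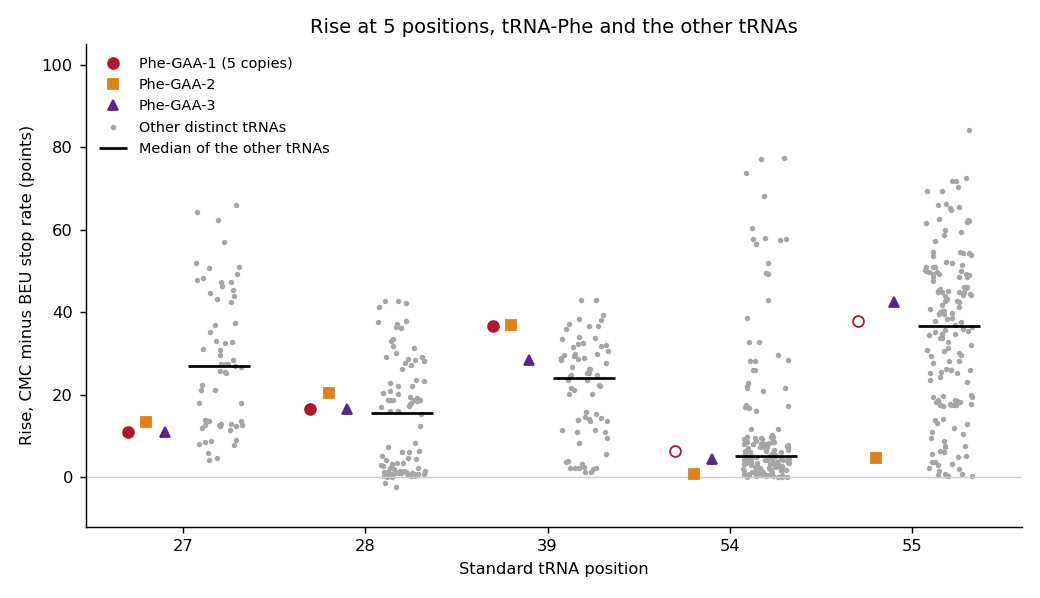
Mean rise over the 6 pairs, in percentage points, at 5 standard positions for the 3 distinct tRNA-Phe and, in grey to their right, every other distinct tRNA with a T there. Black lines are medians of the plotted values of the other tRNAs, positions 27 and 28 use a coverage minimum of 10 and the others of 20, and open symbols are tRNA-Phe values whose 6 BEU libraries were all at the ceiling, which are no measured rises. At position 55 Phe-GAA-2-1 lay at 4.76 points and Phe-GAA-3-1 at 42.4 points.

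Positions 27 and 28, in the anticodon stem, are sites of PUS1. Both lie 5′ of position 37, where few reads remained: at T28 of Phe-GAA-1-1 the lowest coverage was 19 reads, and at T27 it was 15. They therefore missed the minimum of 20 reads. With a minimum of 10 reads, T27 and T28 of all 3 tRNAs were called in both ages, and 12 of 48 tRNA-Phe T sites were called in each age. The background was then 20.0% of all T sites in old cells and 18.4% in young cells. At T28 of Phe-GAA-1-1 the CMC stop rate was 16.7, 26.3 and 12.5% in old cells and 17.5, 13 and 16% in young cells. All 6 BEU libraries lay at or below 0.849%. The adjusted p by edgeR was 5.34e-06 in old cells and 5.46e-06 in young cells.

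T27 of Phe-GAA-1-1 had CMC stop rates of 11.5, 13.3 and 11.4% in old cells and 11.8, 4.93 and 18.2% in young cells. The BEU stop rates were 0.727, 0.932 and 1.72% in old cells and 0.657, 1.01 and 0.956% in young cells. CMC exceeded BEU in every pair at T27 as well. With 1 read subtracted from stops and coverage, a constant the files may contain, the old rise at T27 was 7.26 points in place of 10.95 points. Coverage of Phe-GAA-3-1 equalled that of Phe-GAA-1-1 at both bases, within 2 reads or 2%, so its values there are not separate measurements. The rise at T27 of Phe-GAA-1-1 was 10.9 points over the 6 pairs, beside 26.6 points as the median of 63 other tRNAs, lower in 6 of 6 pairs (exact sign-flip p = 0.03125, adjusted p = 0.0625 over 6 comparisons). At T28 it was 16.6 points beside 13.5 points in 90 other tRNAs (exact p = 0.188 before and after adjustment).

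**Figure D4:**
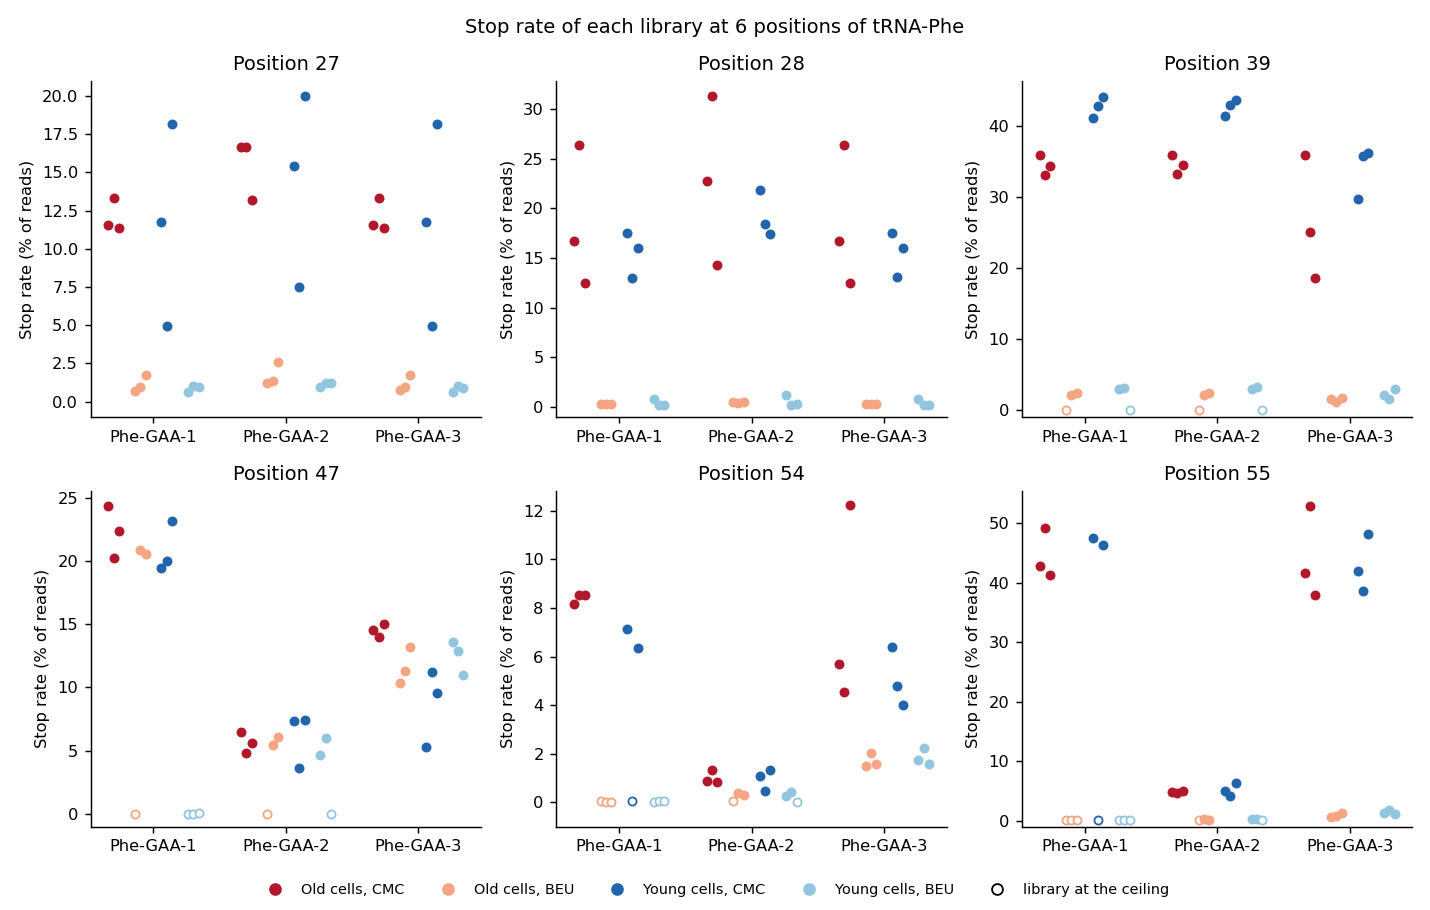
Stop rate in percent of reads in each library at 6 T positions of the 3 distinct tRNA-Phe, with old CMC, old BEU, young CMC and young BEU libraries from left to right. Each point is 1 library, and open points are libraries at the coverage ceiling. At position 39 the old CMC libraries of Phe-GAA-1-1 lay between 33.1 and 35.9% and the young ones between 41.0 and 44.1%, while those of Phe-GAA-3-1 overlapped.

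Position 37 had high stop rates in the absence of CMC. Whether these stops came from halted reverse transcriptase or from RNA ending there was not tested. In Phe-GAA-1-1 the BEU stop rate at G37 was 94.9% in both old libraries below the ceiling, and 94.7 and 95.1% in the young ones. With CMC it was 95.1, 95.5 and 94.2% in old cells and 91.9, 90.9 and 91.5% in young cells. The old CMC libraries stood above the young ones. The adjusted p for CMC against BEU by edgeR, with the libraries at the ceiling kept, was 0.442 in old cells and 0.301 in young cells. With those libraries missing, the difference, CMC minus BEU, was 0.0531 points in old cells and -3.48 points in young cells (adjusted p by limma 0.945 and 0.0510). In Phe-GAA-2-1, which has nearly equal coverage there, it was -0.411 points in old cells and -3.54 points in young cells (adjusted p by limma 0.582 and 0.0390), so the young difference passed there. With the libraries at the ceiling kept, its adjusted p by edgeR in young cells was 0.206.

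In Phe-GAA-3-1 the CMC stop rate at G37 was 69.7, 56.2 and 79.3% in old cells and 70.5, 62.2 and 54.5% in young cells, with a lowest coverage of 16 reads. The BEU stop rate at G37 was 67.2, 77.1 and 78.8% in old cells and 78.1, 80.9 and 77.3% in young cells. At a coverage minimum of 10, the adjusted p for CMC against BEU by edgeR was 0.733 in old cells and 0.130 in young cells.

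Among 182 tRNAs with coverage of at least 20 at position 37 in all 6 BEU libraries, Phe-GAA-2-1 ranked 1 at 94.5%, Phe-GAA-1-1 ranked 2 at 93.6% and Phe-GAA-3-1 ranked 5 at 76.6%, as means over all 6 BEU libraries. The other 179 tRNAs had a median of 1.62%. Of these, 2 exceeded Phe-GAA-3-1, tRNA-Lys-TTT-2-1 at 91.8% and tRNA-Lys-TTT-1-1 at 90.6%, and the next was tRNA-Thr-CGT-4-1 at 11.4%.

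**Figure D5:**
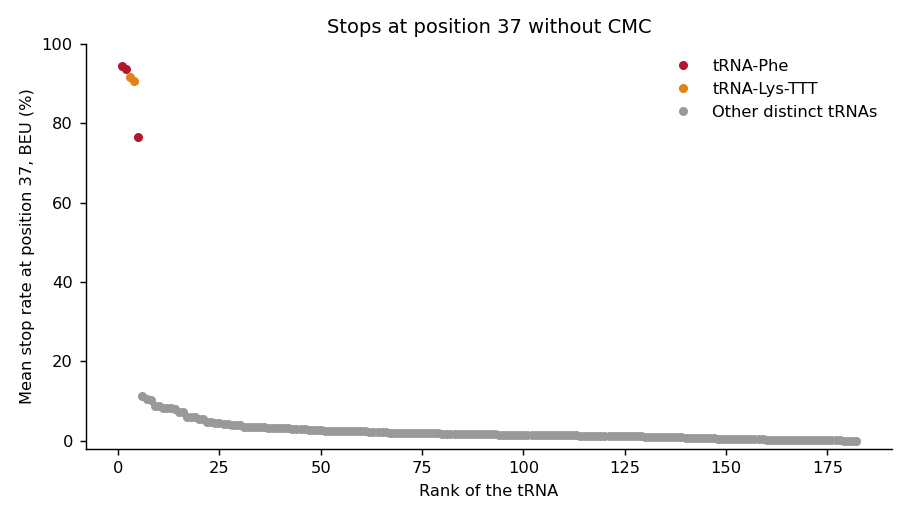
Mean BEU stop rate at position 37, in percent of reads over the 6 BEU libraries, against rank for 182 distinct tRNAs. The 3 tRNA-Phe and the 2 tRNA-Lys-TTT lay between 76.6 and 94.5%, and the next tRNA lay at 11.4%.

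Reads 5′ of the anticodon were more numerous than those reaching it. In Phe-GAA-1-1 the highest coverage 5′ of the anticodon was 4.53 ± 0.877 times the coverage at position 36 in old BEU libraries and 5.91 ± 1.59 times in young ones (SD, n = 3 each). The exact permutation test, two-sided, gave p = 0.3, where 0.1 is the smallest possible. The median of 180 other tRNAs was 0.966 times, and 5 of them exceeded Phe-GAA-1-1. Reads with a 3′ end 5′ of the anticodon were thus present, and their origin was not tested. This ratio was chosen after the data were seen.

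Several bases had similar stop rates with and without CMC. G46, where METTL1 and WDR4 make 7-methylguanosine, had a CMC stop rate in Phe-GAA-3-1 of 21.6, 36.4 and 23.4% in old cells and 28.5, 27.1 and 32.8% in young cells. Its BEU stop rate was 19.0, 24.8 and 23.8% in old cells and 29.8, 32.6 and 26% in young cells. The groups overlapped between treatments, with an adjusted p by edgeR of 0.507 in old cells and 0.994 in young cells.

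T47, the next base in the variable loop, behaved alike in Phe-GAA-1-1 where it was measured. Its CMC stop rate was 24.3, 20.2 and 22.4% in old cells, and the BEU stop rate was 20.9 and 20.6% in the 2 old libraries below the ceiling. In young cells the CMC stop rate was 19.4, 20.0 and 23.1%, and all 3 BEU libraries were at the ceiling and read 0.0375% or less. The young call at T47 thus compares CMC libraries with unmeasured BEU values. In Phe-GAA-3-1 T47 was measured throughout, and its rise was 2.92 ± 1.26 points in old cells and -3.78 ± 3.91 points in young cells (SD, n = 3 pairs each).

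T51, in the T stem, had CMC stop rates in Phe-GAA-3-1 of 9.09, 12.3 and 13.7% in old cells and 13, 8.98 and 7.53% in young cells. Its BEU stop rates were 4.46, 3.68 and 4.35% in old cells and 4.04, 7.58 and 4.01% in young cells. CMC exceeded BEU in all 6 pairs, by 7.54 ± 2.54 points in old cells and 4.62 ± 3.88 points in young cells (adjusted p by edgeR 0.00335 in old cells and 0.0353 in young cells). This stayed below the 10 points of a call.

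In the D loop the order was reversed. T16 and T17 lie where tRNAs carry dihydrouridine. At T17 of Phe-GAA-1-1 the CMC stop rate was 3.20, 2.94 and 4.09% in old cells and 4.61, 3.51 and 10.5% in young cells. The BEU stop rate was 10.2, 11.6 and 10.6% in old cells and 15.2, 13.9 and 12.2% in young cells. CMC stood below BEU in all 6 pairs. With CMC the stop rate fell by 7.39 ± 1.17 points in old cells (adjusted p by edgeR 0.00398) and fell by 7.55 ± 5.11 points in young cells (adjusted p 0.00891). T16 had no such difference past the threshold, with an adjusted p by edgeR of 0.130 in old cells and 0.0814 in young cells.

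Of 129 A, C and G sites of tRNA-Phe with enough coverage, 2 were called in at least 1 age. Over all tRNAs, 52 of 7870 such sites were. By age, the background was 0.61% of the 7870 sites in old cells and 0.368% in young cells. Both tRNA-Phe sites were in Phe-GAA-3-1. A57 had a rise of 15.6 ± 1.07 points in old cells and 11.1 ± 4.64 points in young cells and was called in both ages. A58, the position of 1-methyladenosine made by TRMT6 and TRMT61A, had a rise of 12.5 ± 1.71 points in old cells, where it was called, and 5.89 ± 4.68 points in young cells (SD, n = 3 pairs each). Neither was called in old cells without old replicate 1 or 2, nor A58 without old replicate 3. A57 was not called in young cells without old replicate 2 or 3, or without young replicate 1 or 3.

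At positions 57 to 60, which start at the base where Phe-GAA-3-1 differs from Phe-GAA-1-1, both had equal counts of stop reads. In old replicate 1 with CMC, 412 stop reads were recorded at these 4 positions for Phe-GAA-3-1 and 412 for Phe-GAA-1-1, beside 102 stop reads at T55 of Phe-GAA-3-1 and 1952 at T55 of Phe-GAA-1-1. The counts at 57 to 60 were also equal in the other 3 CMC libraries in which Phe-GAA-1-1 stayed below the ceiling. They made up between 53.9 and 64.1% of the coverage of Phe-GAA-3-1 at position 60, and between 7.98 and 9.84% of that of Phe-GAA-1-1. Whether these are the same reads, counted for both tRNAs, cannot be told from the tables, and their part in the calls at A57 and A58 was not tested.

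The age comparison of CMC-dependent stops covered 7 T sites of tRNA-Phe with a mean rise of at least 10 points. None was called by edgeR, beside 0.0% of 439 T sites in all tRNAs. At an unadjusted p under 0.05 there were 1 tRNA-Phe site and 22 sites in all, and limma called 0 as well. The 1 site was T47 of Phe-GAA-1-1, which rests on BEU values at the ceiling. Without old replicate 1 this base was called (adjusted p by edgeR 7.44e-07), since the BEU libraries then left in old cells were measured and those in young cells were not. With only sites below the ceiling in all libraries fitted, edgeR called 0 of 2 tRNA-Phe sites beside 3 of 215 in all.

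At T55 of Phe-GAA-3-1 the rise differed between old and young cells by 1.67 ± 5.47 points (SE; exact permutation p = 0.8). At T39 of Phe-GAA-3-1 the difference was -6.62 ± 5.45 points (SE; exact p = 0.3). At T39 of Phe-GAA-1-1 it was -7.71 ± 2.32 points (SE; exact p = 0.1, the smallest possible), with an adjusted p by edgeR of 0.999. These values include BEU libraries at the ceiling, old replicate 1 and young replicate 3. With those missing, the rise was 32.1 points in old cells and 39.6 points in young cells (adjusted p by limma for the age difference 0.992). With all pairs kept, all old rises there lay below all young rises. Such an order occurred at 2.05% of the 439 sites tested. For tRNA-Phe it held at 2 of 7 sites, T39 of Phe-GAA-1-1 and of Phe-GAA-2-1, which have nearly equal coverage there and are not independent.

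With CMC libraries alone, a comparison added after the data were seen, the stop rate at T39 of Phe-GAA-1-1 was 34.4 ± 1.39% in old cells and 42.6 ± 1.54% in young cells (SD, n = 3 each). limma gave an unadjusted p of 0.0450 and an adjusted p of 0.977, so the difference did not pass. All old CMC libraries lay below all young ones at 3.83% of 653 T sites with CMC stop rates of 10% or more and no CMC library at the ceiling, and above them at 11.6%. Of 10 tRNA-Phe T sites tested in this way none was called, beside 0.0% of 719 sites in all, with 3 and 35 at an unadjusted p under 0.05. Those 3 include T39 of Phe-GAA-1-1 and T47 of Phe-GAA-3-1. The 10 sites are not independent, since T39 of Phe-GAA-1-1 and of Phe-GAA-2-1 have nearly equal coverage. Among 56 other tRNAs with a rise of at least 10 points at T39, the median difference in rise, old minus young, was 0.636 points.

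Without CMC, 18 tRNA-Phe bases that averaged 5% or more over the BEU libraries were compared between old and young cells. None was called by edgeR, beside 0.0% of 1190 bases, and limma called 0 as well. At an unadjusted p under 0.05 there were 1 tRNA-Phe base and 69 in all, and the 1 base was again T47 of Phe-GAA-1-1. The background depended on the sites fitted. With only sites below the ceiling in all libraries, edgeR called 0 of 13 tRNA-Phe bases beside 50 of 893 in all.

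For abundance, each tRNA's peak coverage was compared over the 6 BEU libraries. In these bulk samples a change in cell makeup and a change in RNA per cell cannot be told apart. Phe-GAA-3-1 had 4705, 1643 and 1381 reads in old cells and 3277, 2934 and 5443 reads in young cells. Its log2 fold change, old over young, was -0.25 after TMM scaling (adjusted p by edgeR 0.681). Scaled by library size alone it was -0.45 (adjusted p by edgeR 0.738), and from coverage at position 35 it was 0.14, the other direction (adjusted p by edgeR 0.768). Phe-GAA-2-1 had a log2 fold change of 0.08 (adjusted p 0.842), with 2 libraries at the ceiling. Phe-GAA-1-1 lay at the ceiling in all 6 BEU libraries, so its fold change is not a measurement of abundance. None of the 213 tRNAs was called (0.0%), and DESeq2 called 1, which was not a tRNA-Phe. The ceiling was reached by 103, 27 and 21 tRNAs in the old BEU libraries and by 50, 35 and 98 in the young ones. Scaling between libraries therefore rests in part on capped peaks, also for Phe-GAA-3-1.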

How the data were processed

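The data are 6 tables deposited by the authors, and each pairs a CMC with a BEU library of the same age and number. Per the file headers, they hold coverage (a count of reads over each base), stop reads and the stop rate in percent. The deposited stop rate equals 100 times stop reads over coverage, and stop reads, a count of another kind, were taken as deposited by the authors. Bowtie2 2.3.5, Bowtie and mm10 are named, without roles, in the submitters' processing notes. How a stop was defined is not stated there. Depth is limited by the ceiling near 8000 reads; the sum over tRNAs of the highest coverage was 201980 to 1061426 reads per library.

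Members, lists and tests were chosen with earlier results of these data known. All tRNA-Phe T rows with coverage of at least 20 in all 12 libraries were considered for naming, with other bases with a rise of at least 10 points or a BEU stop rate of at least 5%. Stop and read-through counts were fitted with edgeR 4.0.16 (quasi-likelihood, R 4.3.3), with library terms and log-odds terms for the 4 groups, over all distinct tRNAs. Benjamini-Hochberg adjustment ran over all T sites, or over all A, C and G sites. limma 3.58.1 (log2 odds with 0.5 added) and DESeq2 1.42.0 (abundance) were alternatives. The fits were tested on simulated data whose spread between libraries was chosen, not estimated from these libraries. A first simulation, with another form of spread and adjustment over all sites, recovered none of the changed sites, and the simulation was then revised once, so the test checks the code and not the power at these libraries' spread. Replicate numbers did not pair the libraries in the main fits. The rises of single pairs, their SDs and the exact tests of rises matched libraries of the same age and number, as deposited.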

Additional observations from a re-analysis of the deposited data

Results flagged for a closer look

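T47 of Phe-GAA-3-1 had CMC above BEU in every old pair and below BEU in every young pair, and was picked out for that pattern. Its rise was 4.25, 2.74 and 1.76 points in the 3 old pairs and -8.30, -1.65 and -1.40 points in the 3 young pairs, a difference, old minus young, of 6.70 points. Neither rise passed, with an adjusted p for CMC against BEU by edgeR of 0.316 in old cells and 0.178 in young cells. The base lay outside the adjusted comparison of rises between ages, since its mean rise was under 10 points, and the fit gave an unadjusted p of 0.0410 by edgeR for the difference. The two-sided exact permutation test gave p = 0.1, the smallest it can give. Since the base was chosen by these rises, both p-values describe it and are no separate evidence. The CMC stop rate was 14.6, 14 and 15% in old cells and 5.30, 11.2 and 9.59% in young cells, with coverage in those libraries from 50 to 527 reads. In the comparison of CMC libraries alone, limma gave an unadjusted p of 0.0119 and an adjusted p of 0.571, so that difference did not pass. No cause was tested.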

How the results depend on the processing

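Coverage sets the main limit: at a minimum of 10 reads, 12 tRNA-Phe T sites were called in old and 12 in young cells, and among sites below the ceiling 2 and 2, since fewer sites were tested. Leaving out 1 library pair at a time gave 6 to 11 calls in old and 5 to 11 in young cells, with 11 each without old replicate 2. The shallow CMC library of that replicate otherwise kept out T28 of each tRNA and T27 of Phe-GAA-1-1 and Phe-GAA-3-1. T27 of Phe-GAA-2-1 stayed out without it too. A, C and G calls were 0 to 2 in those fits, and 0 with the replicate block. Age calls were 0 to 1 and calls without CMC 0 to 1, the 1 being T47 of Phe-GAA-1-1 without old replicate 1. Same-numbered BEU and CMC libraries of an age deviated with correlations from -0.424 to 0.329, and 1 of 12 libraries correlated best with its own number. The main fits therefore did not use the numbers as pairs. The SDs of the rises, the counts of pairs and the exact tests of rises did match libraries by number, as deposited. They depend on a matching that these correlations did not bear out. The replicate block changed no other count of tRNA-Phe calls.

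A few comparisons with other tRNAs changed sign. T54 and T55 of Phe-GAA-1-1 have no measured BEU rate, so their values describe the tables and no rise. At T54 the difference was -6.11 points against the mean of the others. At T55 it was -0.658 points against tRNAs below the ceiling, and -0.951 to 5.90 points with 1 pair left out. Where about 1 stop read was recorded, it was -0.192 points at T66 and -0.0588 points at T68 of Phe-GAA-2-1, and -0.267 points at T66 and -0.0751 points at T67 of Phe-GAA-3-1, against the mean. Against tRNAs below the ceiling it was -0.202, -0.151 and -0.00729 points at T66, T67 and T68 of Phe-GAA-2-1, and -0.276 and -0.230 points at T66 and T67 of Phe-GAA-3-1. With 5 pairs the smallest exact p is 0.0625, so those fits could not pass. Of the rises, 424 values stayed within 1 SD of the reported one and 16 moved further, all of them with 1 subtracted.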
